A study of Mus musculus with 28 samples.

Results

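Hox genes encode homeodomain transcription factors and lie in 4 clusters, HoxA to HoxD. They were read here as every gene whose symbol in the array's probe annotation is Hoxa, Hoxb, Hoxc or Hoxd followed by a number only. This gave 37 of 19938 named genes: 10 in HoxA, 9 in HoxB, 9 in HoxC and 9 in HoxD, each on 1 probe set. By paralog number, 7 were anterior (1 to 3), 14 central (4 to 8) and 16 posterior (9 to 13). Hoxb8 was left out because its probe set is shared with Hoxb7. No measured value chose these genes.

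Genes of a Hox cluster are switched on in the order in which they lie along the chromosome, from anterior to posterior along the body and from the body to the tip of a limb. Fibroblasts keep much of the Hox pattern of the site they came from when they are grown in culture, and the pattern is therefore used as a record of position. Polycomb proteins hold silent parts of a cluster closed, Trithorax proteins keep active parts open, and PBX, MEIS and PKNOX proteins bind DNA together with HOX proteins. Whether such a record persists when fibroblasts are driven towards a cardiac muscle fate is the question these comparisons address.

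The study measured total RNA of mouse embryonic fibroblasts (MEFs) on 28 single-channel arrays. The 0F group (3 arrays) was MEFs that received no virus. The other groups carried doxycycline-controlled lentiviral factors: GMT (5 arrays) had GATA4, MEF2C and TBX5; NGMT (6) had these and NKX2.5; HGMT (3) had GMT and Hand2; HNGMT (3) had all 5. DMT (4) had MYOCD, MEF2C and TBX5, and DMNT (4) had these and NKX2.5. All cells with factors also carried rtTA, the doxycycline-dependent activator, and a reporter in which a troponin T promoter drives zeocin resistance. Doxycycline was given at 2 μg/mL and zeocin at 300 μg/mL over the last 7 days before collection at day 21. By the protocol, 0F cells were also collected at day 21 but not transduced. The source name of the 0F arrays, in contrast, is that of selected cells, and the titles and the protocol were followed here. The labels describe independent biological replicates and give no age of the embryos. A comparison with 0F thus spans virus, medium, doxycycline and selection as well as the factors.

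The arrays fell into 3 sets by their value distributions, and groups were compared inside a set. Set 1 held 8 arrays (0F 1 to 3, GMT 1 and 2, NGMT 1 to 3), set 2 held 15 (GMT 3 to 5, NGMT 4 to 6, HGMT, HNGMT, DMT 1 to 3) and set 3 held 5 (DMT 4 and DMNT). The array median of all probe sets was 6.68 to 6.75 log2 in set 1, 6.86 to 6.95 in set 2 and 7.64 to 7.65 in set 3, and it serves below as a reference for weak signal, since a probe set below it may carry background only. HNGMT replicate 1 stood apart from the other HNGMT arrays (mean absolute distance 0.227 log2, against 0.167 and 0.179 for the others), and its mean macrophage marker signal was 0.12 above the array median, against -0.09 and -0.63 in the others. In DMNT, 27.8% of probe sets had equal values on at least 3 of the 4 arrays, against 0.0984% to 1.14% in other groups of 3 arrays, and 10 Hox genes were among them; the spread inside DMNT is therefore not that of 4 free measurements. Fibroblast markers stayed far above the array median everywhere (array means 4.09 to 5.09 above it). Cardiac muscle markers averaged -0.31 to -0.19 in 0F and 1.24 to 2.81 in the groups with factors.

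**Figure D1:**
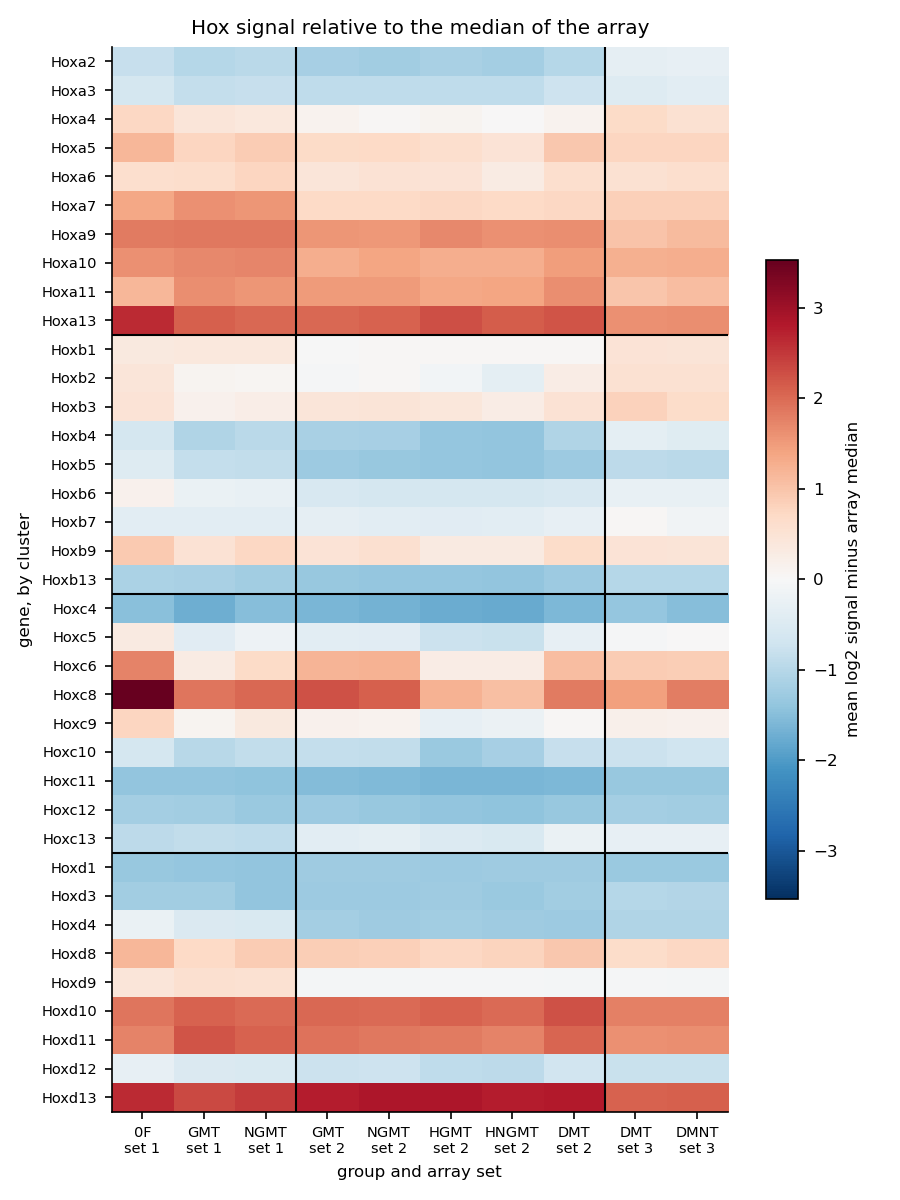
Mean log2 signal of each of the 37 Hox genes minus the array median, for the 10 combinations of group and array set; lines separate clusters and sets. Rows are to be read across, since levels of different probe sets are not comparable; HoxC rows 5, 6, 8 and 9 are highest in 0F among the groups of set 1, and the rows of Hoxa9, Hoxa10, Hoxa11, Hoxa13, Hoxd10, Hoxd11 and Hoxd13 stay above the median in every column.

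Of the Hox genes above the array median on all 0F arrays, most were still above it at day 21 in every group with factors. Signal above the median was about as common over all genes. On at least 3 arrays it was seen for 21 of 37 Hox genes and 12211 of 19938 genes. On all arrays of GMT and 0F in set 1 it was seen for 19 Hox genes and 10495 of all genes. What share of all genes stayed above it was not worked out. Of the 37 genes, 14 lay above the median on all 28 arrays: Hoxa5, Hoxa6, Hoxa7, Hoxa9, Hoxa10, Hoxa11, Hoxa13, Hoxb3, Hoxb9, Hoxc8, Hoxd8, Hoxd10, Hoxd11 and Hoxd13. They included 8 of 16 posterior, 5 of 14 central and 1 of 7 anterior genes, and 7 of the 10 HoxA genes against 1 of the 9 HoxC genes. A further 14 lay below the median on all 28 arrays, 5 of them in HoxC, and 9 were above on some arrays.

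In 0F, 21 genes were above the median on all 3 arrays. Of these 21, 19 were also above it on all arrays of GMT and of NGMT in set 1, where the genes that were not were Hoxb2 and Hoxc5. In set 2 the number was 17 in GMT, 16 in NGMT, 16 in HGMT, 15 in HNGMT and 17 in DMT. In set 3 it was 19 in DMT replicate 4 and 19 in DMNT. Hoxc5 was missing from this count in every group with factors, Hoxd9 in every group of sets 2 and 3, and Hoxc9 in HGMT, HNGMT and DMT of set 2. Hoxc6, a gene of thoracic identity in the body axis, fell below the median only on 1 of the 28 arrays, HNGMT replicate 1. The sets have different value distributions, so a gene near the median can cross it between sets without a change in the cells. The 1 gene above the median on a group's arrays that was not so in 0F was Hoxb7, on the single DMT array of set 3.

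In GMT cells most central and HoxC genes fell relative to 0F, while Hoxa7, Hoxa11 and Hoxd11 rose. Of the 37 genes, 21 fell and 3 rose (limma, adjusted p over all 19938 genes); over all genes 16.0% fell and 22.6% rose. The median Hox difference was -0.23 log2, against 0.01 over all genes. Of the 14 central genes 11 fell and 1 rose; of the 16 posterior genes 6 fell and 2 rose; of the 7 anterior genes 4 fell. By cluster, 6 of 9 HoxC, 6 of 9 HoxB, 5 of 10 HoxA and 4 of 9 HoxD genes fell.

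NGMT cells gave 19 falls and 3 rises among the 37 genes relative to the same 0F arrays, against 17.5% and 23.0% of all genes, with a Hox median of -0.17. With only genes above the median on at least 3 arrays tested, 21 Hox genes entered and the counts called were 15 in GMT and 14 in NGMT, against 56.5% and 58.2% of the 12211 genes tested. Of these 15, 12 fell and 3 rose (22.3% and 34.2% of the genes tested), and of the 14, 11 fell and 3 rose (23.3% and 34.9%). Hoxc5, which fell in both, was above the median on 4 arrays only, the 3 of 0F and 1 of DMNT. It entered through 0F, where it was high, and entry of this kind favours a fall against 0F. In NGMT 10 of 14 central, 4 of 16 posterior and 5 of 7 anterior genes fell. GMT and NGMT share their 0F arrays, so the 2 comparisons are not independent. In bulk RNA, fewer cells of a type and less RNA per cell cannot be told apart.

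**Figure D2:**
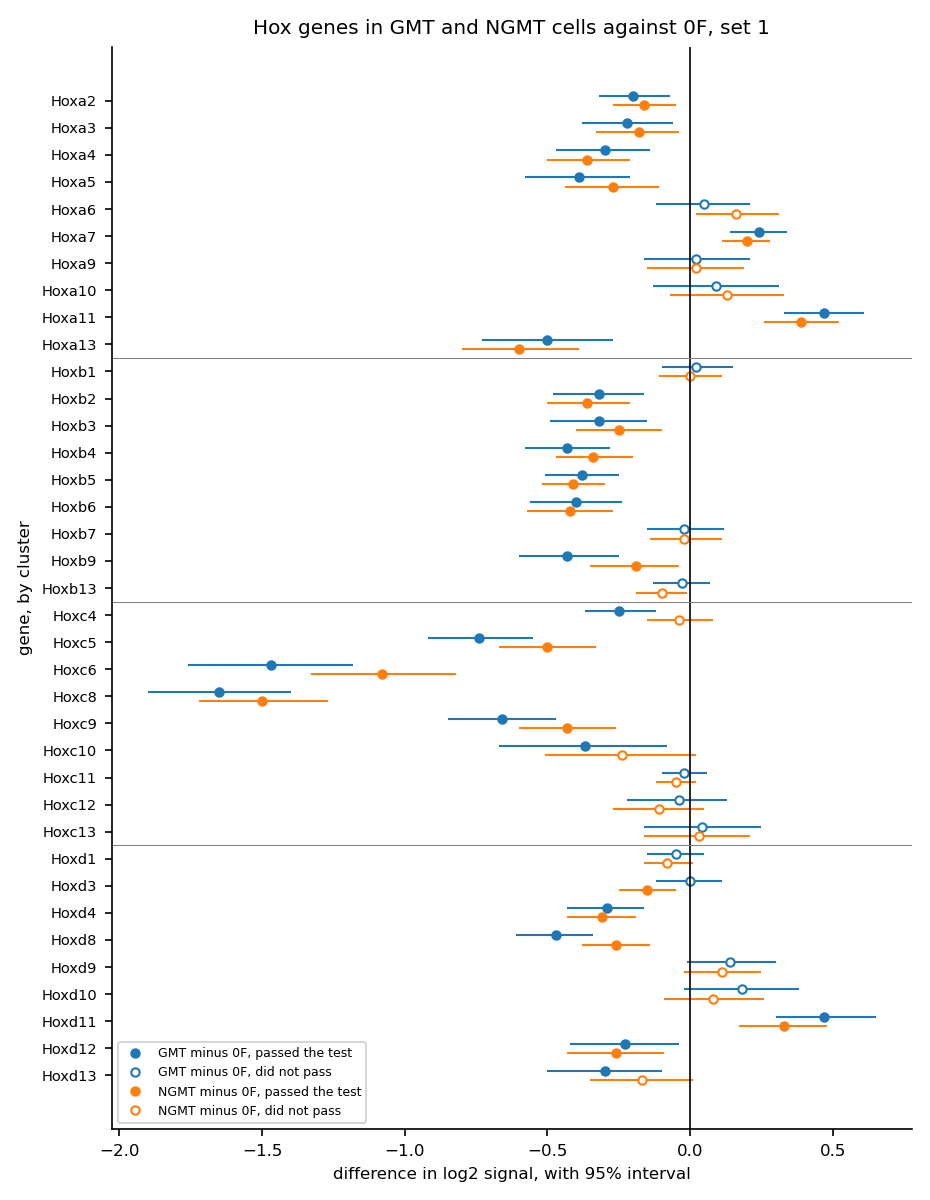
Difference in log2 signal of each Hox gene in GMT (2 arrays) and NGMT (3) against 0F (3), set 1, with the 95% interval of the limma fit; filled points passed the test. Hoxc8 and Hoxc6 lie farthest to the left, and Hoxa7, Hoxa11 and Hoxd11 are the filled points to the right of 0.

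Hoxc8, a central gene expressed in the thoracic part of the body axis, changed most. Its log2 signal was 10.27, 10.31 and 10.18 on the 0F arrays, 8.70 and 8.51 in GMT, and 8.83, 8.83 and 8.60 in NGMT. The 0F arrays are all above the others with no overlap. The fall was -1.65 ± 0.12 (SE) in GMT, a 3.14-fold difference (limma adjusted p = 4.17e-11), and -1.50 ± 0.11 in NGMT, 2.82-fold (limma adjusted p = 3.09e-11). Hoxc8 nevertheless stayed above the array median on all 28 arrays.

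Hoxc6 lies next to Hoxc8 in the cluster and followed it. Hoxc6 signal was 8.51, 8.48 and 8.42 in 0F, 6.96 and 7.04 in GMT, and 7.54, 7.56 and 7.07 in NGMT, again with no overlap between 0F and either group. NGMT replicate 3 was lower than the other NGMT arrays and close to GMT. Hoxc6 fell by 1.47 ± 0.14 in GMT (limma adjusted p = 3.17e-09) and by 1.08 ± 0.12 in NGMT (adjusted p = 8.77e-08).

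Hoxc5, on the anterior side of Hoxc6, read 6.97, 7.26 and 6.90 in 0F, 6.28 and 6.34 in GMT, and 6.59, 6.59 and 6.45 in NGMT. Its fall was -0.74 ± 0.09 in GMT (limma adjusted p = 2.56e-07) and -0.50 ± 0.08 in NGMT (adjusted p = 1.38e-05), without overlap, and it took the gene from above to below the array median.

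Hoxc9, on the posterior side of Hoxc8, read 7.55, 7.39 and 7.53 in 0F, 6.78 and 6.89 in GMT, and 7.14, 7.18 and 6.86 in NGMT, with every 0F array above the rest. The difference for Hoxc9 was -0.66 ± 0.09 in GMT (limma adjusted p = 1.85e-06) and -0.43 ± 0.08 in NGMT (adjusted p = 1.23e-04). Hoxc4, the most anterior HoxC gene and below the array median here, fell in GMT (-0.25 ± 0.06, limma adjusted p = 0.00166) and gave -0.04 ± 0.05 in NGMT (adjusted p = 0.653). Hoxc11, Hoxc12 and Hoxc13 lay below the array median on these arrays and had differences of -0.11 to 0.04, none of which passed the test. Hoxc10 fell in GMT (-0.37 ± 0.14, limma adjusted p = 0.0431) and gave -0.24 ± 0.13 in NGMT (adjusted p = 0.147), all below the median.

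**Figure D3:**
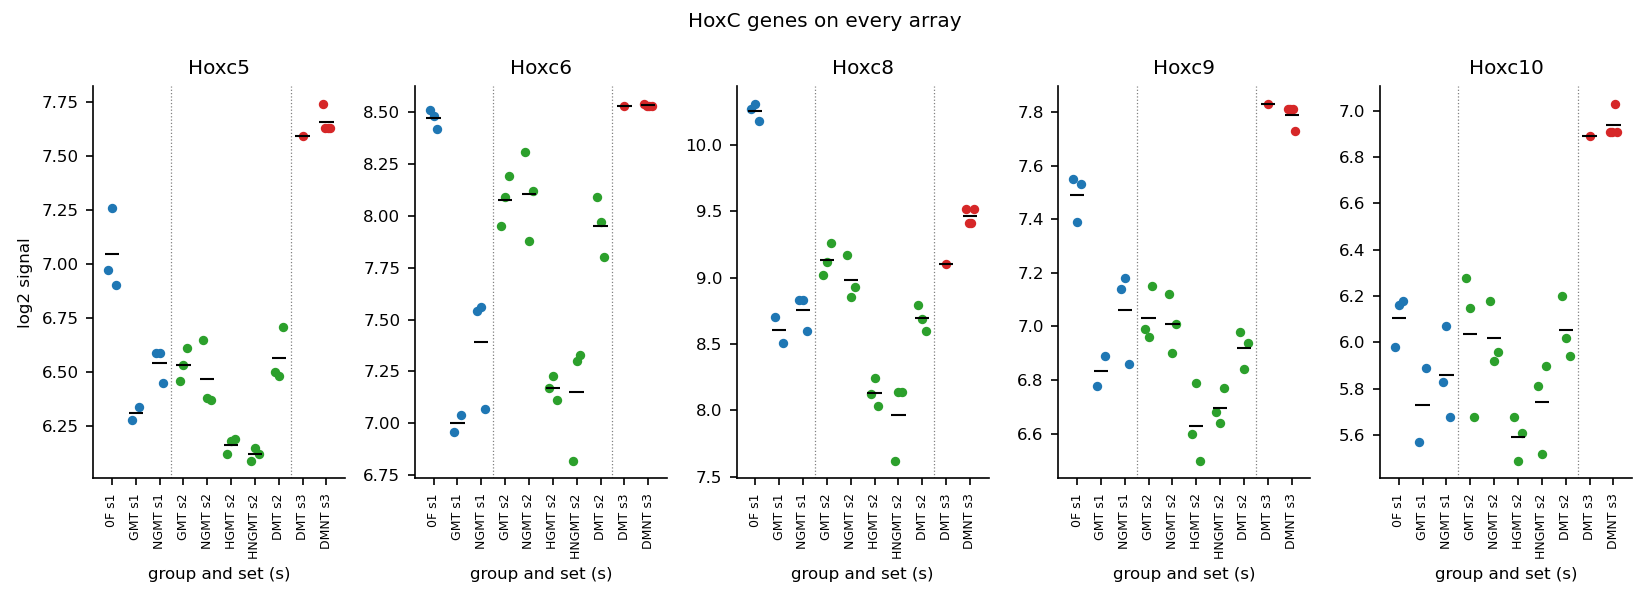
Log2 signal of Hoxc5, Hoxc6, Hoxc8, Hoxc9 and Hoxc10 on each of the 28 arrays, by group and array set (s1 to s3), with a line at each group mean; each panel has its own axis and dotted lines separate the sets. Inside set 1 the 3 0F arrays are above all others for Hoxc5, Hoxc6, Hoxc8 and Hoxc9, and inside set 2 the HGMT and HNGMT arrays are below the GMT and NGMT arrays for Hoxc6 and Hoxc8.

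In HoxB, 6 of 9 genes fell in each comparison: Hoxb2, Hoxb3, Hoxb4, Hoxb5, Hoxb6 and Hoxb9, with falls of -0.43 to -0.32 in GMT and -0.42 to -0.19 in NGMT. Hoxb1, Hoxb7 and Hoxb13 did not pass, with differences of -0.10 to 0.02. In HoxA, the anterior and central genes Hoxa2, Hoxa3, Hoxa4 and Hoxa5 fell in both groups, by -0.39 to -0.20 in GMT and -0.36 to -0.16 in NGMT. Hoxa6, Hoxa9 and Hoxa10 did not pass in either (0.02 to 0.16). Hoxa7 rose by 0.24 ± 0.05 in GMT and 0.20 ± 0.04 in NGMT (limma adjusted p = 2.79e-04 and 6.29e-04).

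Some falls were of weak signal. With both groups below the array median on every array, 15 Hox genes could be read in GMT and 0F, of which 8 fell and 0 rose; over all 8126 genes of such signal, 6.66% fell and 6.68% rose. In NGMT 7 of the 15 fell and 0 rose, against 9.21% and 6.4% of 8131 genes. Those falls were small (Hoxb4, the largest in GMT, -0.43 ± 0.07), and what share of such a signal is background was not tested. Of the 19 Hox genes above the median on all arrays of both groups, 10 fell and 3 rose in GMT, against 20.3% and 33.2% of all genes of such signal, and 9 fell and 3 rose in NGMT, against 21.3% and 34.1%.

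The posterior HoxA and HoxD genes, which in the limb pattern the forearm and hand, moved in both directions. Hoxa13, expressed in the hand and foot, fell. It read 9.34, 9.32 and 9.38 in 0F, 8.83 and 8.85 in GMT, and 8.70, 8.63 and 8.91 in NGMT, with the 0F arrays above all others. Hoxa13 differed by -0.50 ± 0.11 in GMT (limma adjusted p = 6.02e-04) and by -0.60 ± 0.10 in NGMT (adjusted p = 2.00e-05).

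Hoxa11 and Hoxd11, paralogs that act together in the forearm, rose. They are given on every array although their change was under 0.5, a choice made after their values were seen. Hoxa11 read 7.84, 7.93 and 7.90 in 0F, 8.33 and 8.39 in GMT, and 8.28, 8.36 and 8.21 in NGMT, so the 0F arrays were the 3 lowest. Hoxa11 rose by 0.47 ± 0.07 in GMT (limma adjusted p = 3.80e-06) and 0.39 ± 0.06 in NGMT (adjusted p = 9.82e-06). Hoxd11 read 8.49, 8.51 and 8.43 in 0F, 9.0 and 8.90 in GMT, and 8.74, 8.81 and 8.87 in NGMT, likewise with 0F lowest. Hoxd11 rose by 0.47 ± 0.08 in GMT (limma adjusted p = 5.39e-05) and 0.33 ± 0.08 in NGMT (adjusted p = 8.74e-04).

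Of the other HoxD genes, Hoxd4, Hoxd8 and Hoxd12 fell in both groups, by -0.47 to -0.23 in GMT and -0.31 to -0.26 in NGMT. Hoxd4 and Hoxd12 lay below the array median on all 28 arrays. Hoxd13, the most posterior HoxD gene, fell in GMT (-0.30 ± 0.10, limma adjusted p = 0.0154) and gave -0.17 ± 0.09 in NGMT (adjusted p = 0.136), where its replicate 3 read 9.36, inside the 0F range of 9.31 to 9.42. Hoxd10 (0.18 and 0.08) and Hoxd9 (0.14 and 0.11) did not pass. Hoxd3 fell in NGMT (-0.15 ± 0.05, limma adjusted p = 0.0182), below the median.

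**Figure D4:**
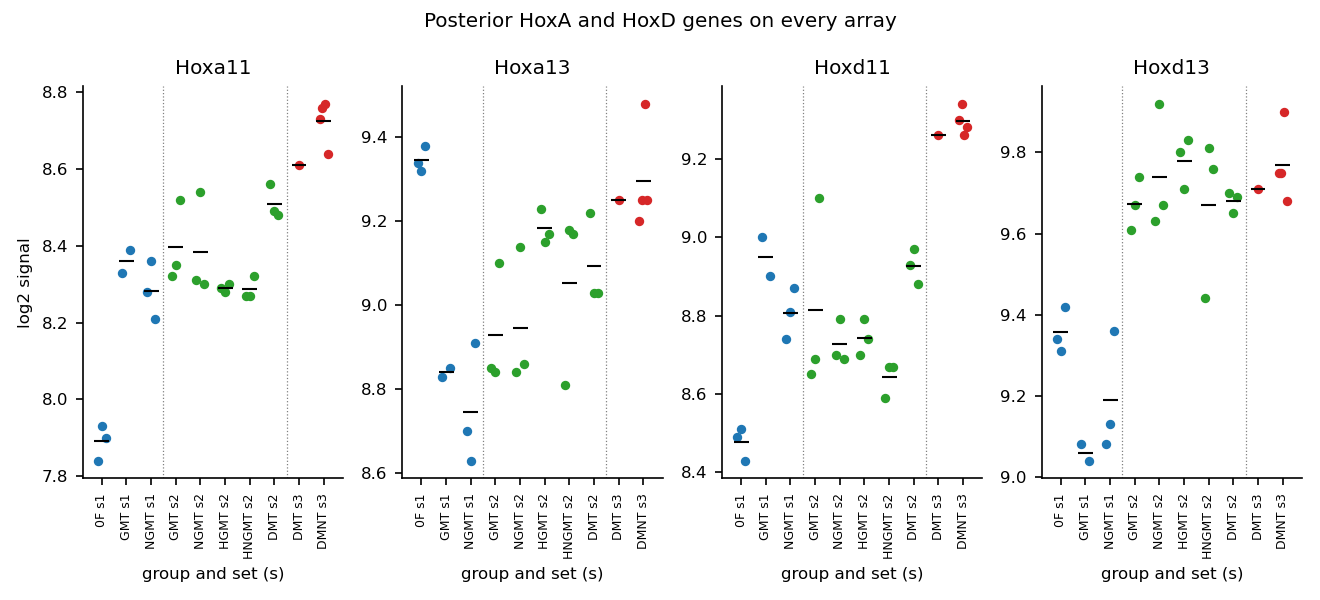
Log2 signal of Hoxa11, Hoxa13, Hoxd11 and Hoxd13 on each of the 28 arrays, by group and array set (s1 to s3), with a line at each group mean; each panel has its own axis. In set 1 the 0F arrays are lowest for Hoxa11 and Hoxd11 and highest for Hoxa13.

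Promoter windows are shown for the posterior genes Hoxa11, Hoxa13 and Hoxd11, which passed the test in both groups and whose values are given on every array. RefSeq (GRCm38.p6) promoter windows of 300 bases, 250 before and 50 after a start, were at hand for 21 of the 37 Hox genes (23 windows). They were searched for 7 motifs on both strands: TATAAA (the box near many starts), CCAAT (bound by nuclear factor Y), AGATAA (bound by GATA factors), AGGTGT (bound by T-box factors), AAGTG (bound by NKX2 factors), CATCTG (bound by helix-loop-helix factors) and TAATTA (a homeodomain core, the same on both strands), and matches are in capitals. The windows are chr6:52245761-52246060 on the minus strand (Hoxa11), chr6:52260831-52261130 on the minus strand (Hoxa13), and chr2:74679308-74679607 and chr2:74682073-74682372 on the plus strand (Hoxd11, 2 starts).
Hoxa11: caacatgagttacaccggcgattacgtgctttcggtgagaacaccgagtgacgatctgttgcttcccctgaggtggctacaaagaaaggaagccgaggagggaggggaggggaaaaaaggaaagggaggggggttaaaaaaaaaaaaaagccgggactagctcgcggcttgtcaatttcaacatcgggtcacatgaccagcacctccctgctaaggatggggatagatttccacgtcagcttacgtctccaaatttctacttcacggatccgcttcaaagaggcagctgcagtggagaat
Hoxa13: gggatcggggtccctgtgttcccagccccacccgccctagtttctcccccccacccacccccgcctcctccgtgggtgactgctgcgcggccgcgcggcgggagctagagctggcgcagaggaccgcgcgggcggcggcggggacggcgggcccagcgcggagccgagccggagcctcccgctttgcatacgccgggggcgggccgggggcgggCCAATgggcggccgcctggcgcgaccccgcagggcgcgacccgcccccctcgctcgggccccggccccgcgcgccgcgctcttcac
Hoxd11 upstream start: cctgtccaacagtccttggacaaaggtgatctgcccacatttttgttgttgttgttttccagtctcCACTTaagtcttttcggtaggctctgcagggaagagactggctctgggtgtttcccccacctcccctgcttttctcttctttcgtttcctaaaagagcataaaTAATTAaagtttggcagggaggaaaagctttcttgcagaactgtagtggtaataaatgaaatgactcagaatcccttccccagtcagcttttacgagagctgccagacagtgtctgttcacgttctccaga
Hoxd11 downstream start: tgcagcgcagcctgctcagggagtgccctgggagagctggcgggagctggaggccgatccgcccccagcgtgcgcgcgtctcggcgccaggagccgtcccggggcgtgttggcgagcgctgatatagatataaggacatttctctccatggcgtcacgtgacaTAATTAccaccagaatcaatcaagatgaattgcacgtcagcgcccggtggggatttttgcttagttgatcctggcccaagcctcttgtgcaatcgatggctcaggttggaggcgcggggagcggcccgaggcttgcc
The Hoxa13 window is 81% G and C with 45 CpG pairs, the Hoxa11 window 51% with 15, and the Hoxd11 windows 45.7% with 4 and 62% with 25. The window of Hoxd12, which fell but lay below the array median on all 28 arrays, is 55% with 13. Whether base content bears on the direction of a change was not tested. The median was 58% and 15 over the Hox windows and 52.7% and 7 over 32851 windows of the whole table. TAATTA stood in both Hoxd11 windows, at bases 170 and 164, in 2 of the 23 Hox windows and in 5.29% of all windows. CCAAT stood in 14 of the 23 and in 37.4% of all. AGATAA stood in 0 of the 23 and in 11.2% of all, AGGTGT in 3 and in 13.7%, AAGTG in 9 and in 46.4%, CATCTG in 3 and in 17.2%, and TATAAA in 3 and in 13.6%. The Hoxa11 window held none of the 7. A match is a run of letters and not a bound site.

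No Hox gene passed the test when NKX2.5, a cardiac homeodomain factor, was added to GMT. NGMT against GMT gave 0 of 37 in set 1, where 2.9% of all genes passed, and 0 in set 2, where 0.0602% did. At an unadjusted p under 0.05 limma gave 7 of 37 in set 1 and 0 in set 2, against 10.3% (2044) and 3.67% (732) of all 19938 genes. In set 1 Hoxc6 differed by 0.39 (95% interval 0.11 to 0.68) and Hoxc5 by 0.23 (0.05 to 0.42). In set 2 Hoxc6 differed by 0.02 (-0.23 to 0.28) and Hoxc8 by -0.15 (-0.38 to 0.08). The test of the difference between sets called 0 Hox genes and 0.436% of all genes, with 4 Hox genes and 6.03% of all genes at an unadjusted p under 0.05. Leaving out NGMT replicate 3, the array with the lowest Hoxc6 of its group, brought the set 1 count to 3. Leaving out NGMT replicate 1 brought it to 1. The shares of all genes with these arrays left out are not given.

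Of the 9 HoxC genes, 5 fell in HGMT and 4 in HNGMT, where Hand2, a factor of heart and limb, was added. HGMT against GMT in set 2 gave 5 falls and 0 rises among the 37 genes, all 5 in HoxC (Hoxc5, Hoxc6, Hoxc8, Hoxc9 and Hoxc10), against 7.76% and 7.57% of all genes. HNGMT against NGMT gave 6 falls and 0 rises, against 11.9% and 5.36%: Hoxc5, Hoxc6, Hoxc8, Hoxc9, Hoxb2 and Hoxa6. The Hand2 probe set itself rose by 2.72 ± 0.08 and 2.69 ± 0.08 (limma adjusted p = 1.53e-17 and 1.54e-17). The medians over the 37 genes were -0.04 and -0.05. Of Hox genes above the array median on all arrays of both groups, 2 of 16 (12.5%) fell in HGMT and 2 of 14 (14.3%) in HNGMT. Over all genes of such signal 11.3% and 19.3% fell, so the Hox share was near that of all genes or under it. Below the median on all arrays of both groups, 2 of 18 and 1 of 18 Hox genes fell, against 2.41% and 2.34% of all genes.

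Hoxc8 read 9.02, 9.12 and 9.26 in GMT and 8.12, 8.24 and 8.03 in HGMT. It read 9.17, 8.85 and 8.93 in NGMT and 7.62, 8.14 and 8.14 in HNGMT. Every array with Hand2 was below every array without it, and HNGMT replicate 1 was the lowest. The Hoxc8 fall was -1.00 ± 0.11 in HGMT (limma adjusted p = 3.22e-07) and -1.02 ± 0.11 in HNGMT (adjusted p = 3.69e-07).

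Hoxc6 read 7.95, 8.09 and 8.19 in GMT and 7.17, 7.23 and 7.11 in HGMT, 8.31, 7.88 and 8.12 in NGMT and 6.82, 7.30 and 7.33 in HNGMT. The groups with and without Hand2 did not overlap. Hoxc6 fell by 0.91 ± 0.12 in HGMT (limma adjusted p = 8.67e-06) and by 0.95 ± 0.12 in HNGMT (adjusted p = 6.09e-06).

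Hoxc5 read 6.46, 6.53 and 6.61 in GMT and 6.12, 6.18 and 6.19 in HGMT, 6.65, 6.38 and 6.37 in NGMT and 6.09, 6.15 and 6.12 in HNGMT, all under the array median. Its fall was -0.37 ± 0.08 in HGMT and -0.35 ± 0.08 in HNGMT (limma adjusted p = 0.00218 and 0.004). Hoxc9 read 6.99, 6.96 and 7.15 in GMT and 6.60, 6.79 and 6.50 in HGMT, 7.12, 6.90 and 7.01 in NGMT and 6.68, 6.64 and 6.77 in HNGMT. Hoxc9 fell by 0.41 ± 0.08 and by 0.31 ± 0.08 (limma adjusted p = 9.46e-04 and 0.0101), again without overlap. Hoxc10, below the median, fell in HGMT (-0.44 ± 0.13, limma adjusted p = 0.0194) with overlap, since GMT replicate 5 read 5.68, the same as HGMT replicate 1, and gave -0.28 ± 0.13 in HNGMT (adjusted p = 0.151).

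**Figure D5:**
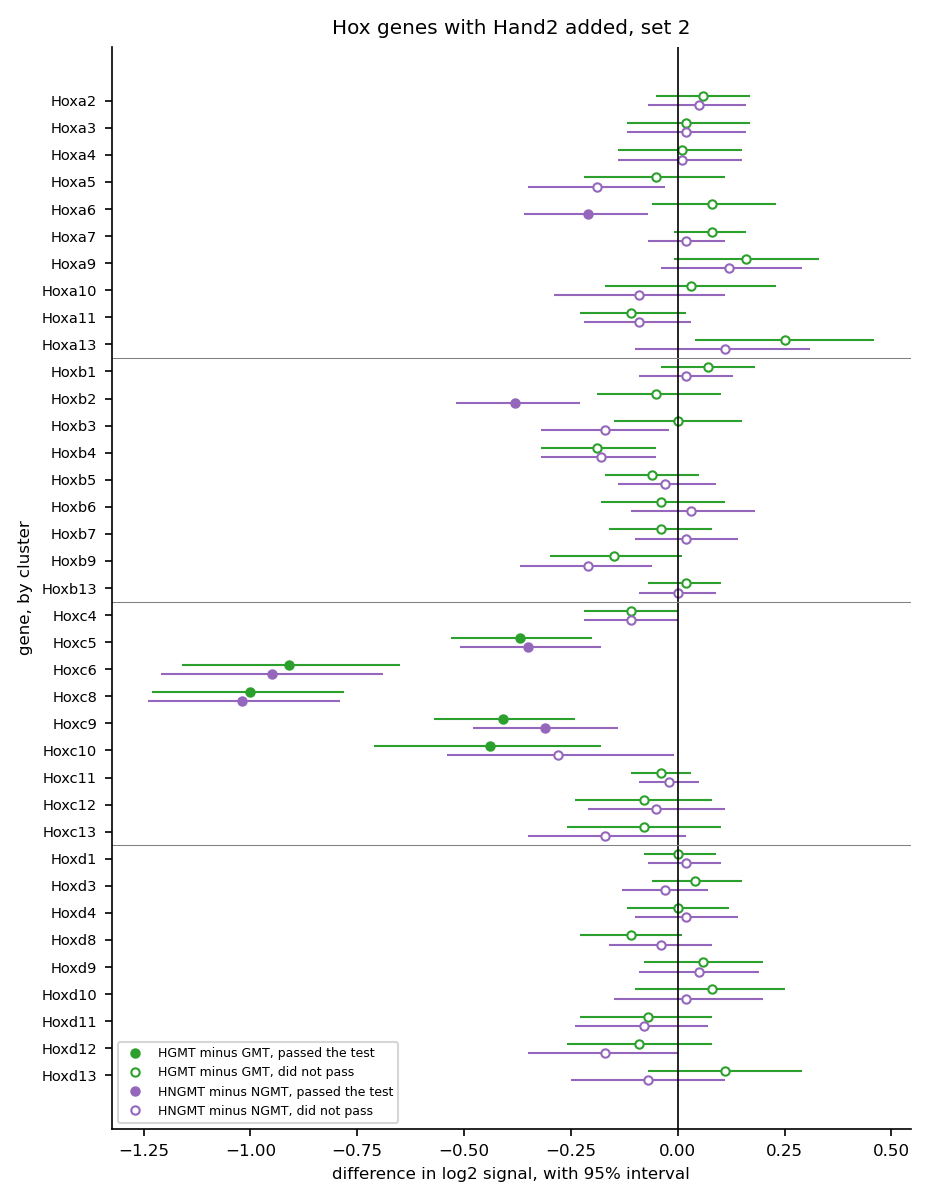
Difference in log2 signal of each Hox gene on addition of Hand2, for HGMT against GMT and HNGMT against NGMT in set 2 (3 arrays a group), with the 95% interval of the limma fit; filled points passed the test. The points for Hoxc6 and Hoxc8 lie near -1 in both comparisons, and those of HoxD are spread around 0.

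Outside HoxC, Hoxb2 fell by 0.38 ± 0.07 in HNGMT (limma adjusted p = 3.78e-04) and gave -0.05 (95% interval -0.19 to 0.10) in HGMT. Hoxa6 fell by 0.21 ± 0.07 in HNGMT (adjusted p = 0.0398) and gave 0.08 (-0.06 to 0.23) in HGMT. Neither of these differences between the comparisons passed its own test (limma adjusted p = 0.507 for Hoxb2 and 0.607 for Hoxa6). The posterior genes Hoxa11 (-0.11 and -0.09), Hoxd11 (-0.07 and -0.08), Hoxd13 (0.11 and -0.07) and Hoxa13 (0.25 and 0.11) did not pass.

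The interaction test of Hand2 with and without NKX2.5 called 0 Hox genes and 0.00502% of all genes, with 2 Hox genes and 7.88% of all genes at an unadjusted p under 0.05. For Hoxc8 the 2 Hand2 differences were apart by -0.01 (95% interval -0.33 to 0.31) and for Hoxc6 by -0.05 (-0.41 to 0.32). HNGMT against HGMT gave 0 Hox genes against 0.181% of all genes, with 2 Hox genes (Hoxb2 and Hoxa6) and 18.6% of all genes (3699) at an unadjusted p under 0.05. Without HNGMT replicate 1, the array that stood apart, Hoxc8 still differed from NGMT by -0.84, Hoxc6 by -0.79, Hoxc5 by -0.33, Hoxc9 by -0.30 and Hoxb2 by -0.33, all past the test, while Hoxa6 gave -0.13 and did not pass. Without HNGMT replicate 3 the HNGMT against NGMT count was 10 and the HNGMT against HGMT count 3. Without HNGMT replicate 2 the HNGMT against HGMT count was 2. The shares of all genes with these arrays left out are not given, so a general change in calls cannot be told apart.

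With MYOCD, a cardiac and smooth muscle coactivator, in place of GATA4, 3 Hox genes passed. DMT against GMT in set 2 gave 2 rises (Hoxa5 and Hoxb2) and 1 fall (Hoxc8) among the 37, against 5.77% and 5.25% of all genes, so neither share lies above that of all genes. Hoxc8 read 8.79, 8.69 and 8.60 in DMT, below the GMT range of 9.02 to 9.26, and fell by 0.44 ± 0.11 (limma adjusted p = 0.00802). Hoxc6 read 8.09, 7.97 and 7.80 and overlapped GMT, with a difference of -0.12 (95% interval -0.38 to 0.13), and Hoxc5 (0.03) and Hoxc9 (-0.11) did not pass either. Hoxb2 read 7.06, 7.16 and 7.13 in DMT and 6.81, 6.87 and 6.90 in GMT, a rise of 0.26 ± 0.07 (adjusted p = 0.0119). Hoxa5 read 7.90, 7.85 and 7.69 in DMT and 7.59, 7.53 and 7.57 in GMT, a rise of 0.25 ± 0.08 (adjusted p = 0.0415). The count was 1 when DMT replicate 2 or GMT replicate 3 was left out, and the shares of all genes in those fits are not given. In the same comparison 7 of 11 adipocyte markers fell and 0 rose (array means 0.24 to 0.46 above the median in DMT and 0.99 to 1.34 in GMT), 6 of 13 cardiac markers rose and 4 fell, 1 of 14 fibroblast markers rose and 3 fell, and 1 of 13 macrophage markers fell. Their part in the Hox differences was not tested.

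NKX2.5 added to DMT gave 0 Hox genes in set 3, where DMT was 1 array, against 0.0451% of all genes, and 1 Hox gene and 2.7% of all genes at an unadjusted p under 0.05. That gene was Hoxc8, at 9.52, 9.41, 9.41 and 9.52 in DMNT and 9.10 in the DMT array, a difference of 0.37 (95% interval 0.06 to 0.68) that did not pass (limma adjusted p = 1). The test of NKX2.5 on DMT against NKX2.5 on GMT called 0 Hox genes and 0.01% of all genes, with 1 Hox gene, Hoxc8, and 2.05% of all genes at an unadjusted p under 0.05.

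HGMT, HNGMT, DMT and DMNT share no array set with 0F and were set against it through the groups present in more than 1 set. HGMT gave 17 falls and 3 rises among the 37 genes (15.0% and 19.8% of all genes). HNGMT gave 18 and 3 (16.0% and 17.6%), DMT 11 and 4 (16.0% and 22.9%), and DMNT 10 and 3 (10.7% and 16.3%). Hoxc8 differed from 0F by -2.48 ± 0.14 in HGMT, -2.65 ± 0.14 in HNGMT, -1.92 ± 0.14 in DMT and -1.55 ± 0.21 in DMNT. Hoxc6 differed by -2.17 ± 0.16, -2.19 ± 0.16, -1.39 ± 0.16 and -1.39 ± 0.24. These 8 values passed (limma, largest adjusted p = 7.46e-05). Hoxa11 rose in all 4 (0.33, 0.32, 0.54 and 0.66), as did Hoxd11 (0.37, 0.27, 0.55 and 0.59), and Hoxd10 rose in DMT (0.34 ± 0.10). The 4 comparisons share the 0F arrays and rest on an additive difference between sets. For Hoxc6 the GMT mean was 0.28 above the array median in set 1 and 1.19 in set 2, and whether that step is scaling or a difference between cultures cannot be told apart. After quantile normalization of all arrays with no set term, Hoxc6 differed from 0F by -1.50, -1.51, -0.72 and -0.77 and Hoxc8 by -2.28, -2.42, -1.75 and -1.47, while Hoxa11 passed only in DMT (0.27) and Hoxd11 in none. Hoxa7, which rose in all 4 through the set term (0.29, 0.23, 0.23 and 0.24), turned to -0.66, -0.69, -0.63 and -0.46.

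Counts for genes that work with or on Hox genes are to be read against all genes, of which 16.0% fell and 22.6% rose in GMT against 0F, and 17.5% and 23.0% in NGMT. Of 8 measured cofactors, 3 fell and 1 rose in GMT, and 4 fell in NGMT. Meis1 fell by 0.67 ± 0.11 and 0.69 ± 0.10, Pbx3 by 0.55 ± 0.06 and 0.36 ± 0.05, and Meis2 by 0.49 ± 0.07 and 0.35 ± 0.06 (limma, largest adjusted p = 7.38e-05). On addition of Hand2, Pknox2 rose by 0.42 ± 0.10 in HGMT and 0.37 ± 0.10 in HNGMT, and Pbx3 by 0.26 ± 0.05 and 0.20 ± 0.05, while Meis1 fell by 0.41 ± 0.10 in HNGMT (limma, largest adjusted p = 0.0118).

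Of 21 Polycomb genes 3 rose and 7 fell in GMT and in NGMT (all genes 22.6% and 16.0%, and 23.0% and 17.5%). Jarid2, an accessory subunit of Polycomb complex PRC2, fell by 0.87 ± 0.10 and 0.83 ± 0.09, Ezh1 fell by 0.34 ± 0.05 and 0.36 ± 0.04, and Eed, a core PRC2 subunit, rose by 0.44 ± 0.07 and 0.51 ± 0.07. With Hand2, 3 rose in HGMT, Ezh1 the most (0.21 ± 0.04), and 1 in HNGMT (Ezh1, 0.18 ± 0.04). Over all genes 7.57% rose and 7.76% fell in HGMT, and 5.36% and 11.9% in HNGMT. The HNGMT rise is thus near the share of all genes. Of 12 genes in a list of Trithorax, H3K27 demethylase and other chromatin genes, 3 rose and 0 fell against 0F in GMT and in NGMT. That is near the 22.6% and 23.0% of all genes that rose. Mllt3, which is neither Trithorax nor an H3K27 demethylase, rose the most (1.23 ± 0.08 and 1.07 ± 0.07). The others were Kmt2a (0.42 ± 0.13 and 0.39 ± 0.12) and Wdr5 (0.26 ± 0.06 and 0.18 ± 0.05). In HNGMT against NGMT 1 of these 12 rose, the H3K27 demethylase Kdm6a (0.25 ± 0.08), and 3 fell, against 5.36% and 11.9% of all genes. Mllt1, likewise neither Trithorax nor an H3K27 demethylase, fell the most (-0.29 ± 0.09).

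Of 14 upstream regulators of Hox genes, 5 rose and 3 fell in GMT and in NGMT, where 22.6% and 23.0% of all genes rose and 16.0% and 17.5% fell. Aldh1a2, the enzyme that makes retinoic acid, a signal that activates Hox genes in the embryo, rose by 4.18 ± 0.16 and 4.21 ± 0.14, and the retinoic acid receptor Rarb by 0.79 ± 0.08 and 0.59 ± 0.07. Egr2, which drives Hox genes of the hindbrain, fell by 1.27 ± 0.19 and 0.90 ± 0.17. Hand2 raised Aldh1a2 further, by 0.86 ± 0.14 in HGMT and 0.63 ± 0.14 in HNGMT (limma, adjusted p = 1.15e-04 and 0.00345).

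Of 39 measured positional genes outside the Hox clusters, 8 rose and 14 fell in GMT and 9 rose and 13 fell in NGMT. Over all genes, 16.0% and 17.5% fell and 22.6% and 23.0% rose. The list was drawn up with Tbx5, delivered in every group with factors, and Hand2, delivered in HGMT and HNGMT. Signal of these genes can include the delivered copies. Meox1, a somite gene, differed by -2.63 ± 0.14 and -2.37 ± 0.13, Eya1 by -2.52 ± 0.12 and -1.77 ± 0.11 and the limb and jaw gene Dlx5 by -1.58 ± 0.17 and -1.62 ± 0.15 (limma, largest adjusted p = 3.82e-08). With Hand2 in set 2, Tbx3 fell by 0.63 ± 0.07 and 0.67 ± 0.07, and Meox2 rose by 0.63 ± 0.09 and 0.65 ± 0.09. Other genes in or beside the clusters gave 1 rise and 2 falls of 21 in GMT, and 1 and 4 in NGMT. Of the 21, 12 lay below the array median on all 28 arrays. Over all genes below it in both groups, 6.68% rose and 6.66% fell in GMT, and 6.4% and 9.21% in NGMT. Of the genes flanking HoxA, Skap2 rose by 0.38 ± 0.08 and 0.43 ± 0.07 and Hibadh fell by 0.42 ± 0.05 and 0.46 ± 0.04. In HGMT and HNGMT 1 of the 21 passed, a rise, where 7.57% and 5.36% of all genes rose. It was Cbx5 near HoxC, which rose by 0.18 ± 0.05 and 0.19 ± 0.05 where some HoxC genes fell.

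The clusters also encode microRNAs that act on Hox transcripts, and their precursors were on the array. The mature RNAs, from RefSeq (GRCm38.p6), are shown with the seed, bases 2 to 8, in capitals, since miR-196 is known to act on Hox transcripts of the central group.
miR-10a-5p: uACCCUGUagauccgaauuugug
miR-10b-5p: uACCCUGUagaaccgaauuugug
miR-196a-5p: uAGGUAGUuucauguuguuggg
miR-196b-5p: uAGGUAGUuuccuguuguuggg
The miR-10 pair shares the seed ACCCUGU and the miR-196 pair the seed AGGUAGU. The precursor probe sets of Mir10a, Mir10b, Mir196a-1, Mir196a-2 and Mir196b lay below the array median on all 28 arrays, from -2.72 to -0.57, and a precursor probe does not measure the mature RNA. Mir615, in the HoxC cluster, lay 0.31 to 1.11 above the median on all 28.

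Markers of other cell types were counted in the same comparisons, to be read beside all genes. Against 0F, 22.6% of all genes rose and 16.0% fell in GMT, and 23.0% and 17.5% in NGMT. With Hand2 the shares were 7.57% and 7.76% in HGMT, and 5.36% and 11.9% in HNGMT. Counts of 1 or 2 in a list with Hand2 are too few to set apart from these shares. Against 0F, 11 of 11 adipocyte markers fell in GMT and in NGMT, with array means of 4.81 to 4.97 above the array median in 0F, 0.15 to 0.24 in GMT and 0.19 to 0.37 in NGMT. Of 13 macrophage markers 12 fell and 1 rose (array means 0.81 to 1.29 in 0F, -0.69 to -0.59 in GMT and -0.79 to -0.68 in NGMT; Ptprc, Fcgr1 and Aif1 were below the median on all 28 arrays). Of 14 fibroblast markers 11 fell and 2 rose in GMT and 8 fell and 3 rose in NGMT, and 11 of 13 cardiac muscle markers rose in both. Of 11 epithelial and mesothelial markers 6 rose, with Epcam, Cdh1, Krt14 and Krt5 below the median throughout. The part of these in the Hox differences from 0F was not tested. With Hand2, where HoxC genes fell again, 11 of 11 adipocyte markers rose in HGMT (array means 1.99 to 2.30, against 0.99 to 1.34 in GMT) and 7 in HNGMT, 2 of 14 fibroblast markers rose and 0 fell in HGMT, and 6 of 13 macrophage markers rose in HNGMT (their median difference in HGMT was -0.02). In HNGMT 1 fibroblast marker rose and 1 fell. Of 13 cardiac markers 3 rose and 5 fell in HGMT, and 3 rose and 4 fell in HNGMT. Of 10 endothelial markers 3 rose and 0 fell in both. Of 11 epithelial and mesothelial markers 3 rose and 1 fell in HGMT, and 3 rose and 2 fell in HNGMT. Of 10 neural and glial markers 2 rose and 3 fell in HGMT, and 1 rose and 2 fell in HNGMT. Their part in the Hand2 differences was not tested.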

How the data were processed

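Total RNA of 28 arrays was read as the log2 signal that the authors deposited for 35556 probe sets (3.757941 to 14.46866); the submitters' processing notes name MAS5, and how it was scaled is not stated there. No depth exists for arrays, and their number (3 to 6 per group over all sets) limits the precision. Inside a set it was 2 for GMT in set 1, 1 for DMT in set 3, 4 for DMNT and 3 otherwise. In the platform annotation 21789 probe sets carry a single symbol, 1621 carry more and 12146 carry no symbol; where a gene had more than 1 probe set, the one with the highest mean stood for it (19938 genes). Tests used limma 3.58.1 under R 4.3.3 (lmFit, eBayes with trend, two-sided), in 1 fit over all 28 arrays, with 1 coefficient per group in each array set (18 residual degrees of freedom); comparisons across sets used group and set as additive terms (19). Array sets came from the distance between sorted values (largest 0.0486 inside a set, smallest 0.1354 between sets). Adjusted p is Benjamini-Hochberg over all genes, called under 0.05, with no filter on low signal. DMT in set 3 is 1 array, taken to vary like the other groups. Values on every array are given for Hox genes called inside a set with a change of at least 0.5 log2, and for other lists up to 4 called genes. The Hox genes, lists and tests were chosen with earlier results of these data known. Tested on simulated data in which 100 genes moved by 0.5 log2 and another 100 by 1, the fit recovered 89% and 98% for GMT against 0F, 93% and 100% for HGMT against GMT, and 61% and 97% for DMNT against 0F through the set term; for HGMT, HNGMT and DMT against 0F it recovered 81% to 86% at 0.5. Among the genes left unchanged, 3 to 20 were called in a comparison. The simulated data had an additive difference between sets, separate normal noise on each array and no other changed genes. They thus cannot test whether differences between the real sets are additive. Equal replicate numbers did not pair the samples.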

Additional observations from a re-analysis of the deposited data

Results flagged for a closer look

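Inside an array set only DMNT had 4 arrays, so its 37 Hox genes alone were examined for an array far from the rest. In 8 of them 1 DMNT array lay apart: Hoxa13 at 9.48 in replicate 3 (others 9.20 to 9.25), Hoxb2 at 8.17 in replicate 4 (others 8.18), Hoxb7 at 7.49 in replicate 3 (others 7.54), Hoxc5 at 7.74 in replicate 1 (others 7.63), Hoxc9 at 7.73 in replicate 4 (others 7.81), Hoxc10 at 7.03 in replicate 3 (others 6.91), Hoxc12 at 6.39 in replicate 1 (others 6.43) and Hoxd1 at 6.30 in replicate 3 (others 6.34). Chance marks about 1 in 20 groups this way. In 7 of the 8 genes the other 3 arrays hold equal values, as 27.8% of all probe sets do on at least 3 DMNT arrays. None of the 3 tests of a difference between effects called a Hox gene.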

How the results depend on the processing

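Limits: signals have no detection calls, GMT in set 1 has 2 arrays and DMT in set 3 has 1. A filter kept only genes above the array median on at least 3 arrays. The Hox count was then 15 for GMT against 0F and 14 for NGMT against 0F. Of the 12211 genes tested, 56.5% and 58.2% passed. Of the 21 Hox genes that entered, Hoxc5 did so through the 0F arrays. Same-numbered arrays correlated from -0.15 to 0.263 in set 1 and from -0.249 to 0.294 in set 2; with a replicate block by title number the count was 2 for HNGMT against NGMT and 1 for DMT against GMT, and 1 for the latter by the number in the sample name. Hoxa6, Hoxb2, Hoxc5 and Hoxc9 did not pass for HNGMT under the title block, and Hoxc6 and Hoxc8 did. The block moved no other Hox count by over 1.5 times. Leaving out 1 array at a time gave 18 to 22 calls for GMT against 0F, 19 to 20 for NGMT against 0F, 0 to 3 for NGMT against GMT in set 1, 4 to 6 for HGMT against GMT, 4 to 10 for HNGMT against NGMT, 0 to 3 for HNGMT against HGMT and 1 to 4 for DMT against GMT. Single-gene values with 1 array left out were also made for the comparisons with 0F through the set term. There any array was left out, also one of neither group compared, and most of the values come from there. Of all 2255, 2151 kept their call, 104 lost it and 0 changed sign. That share therefore says little about calls made inside a set. Leaving out DMT replicate 4 gives no value for DMNT. The Hox counts with 1 array left out stand without the share of all genes under the same setting. Quantile normalization of all arrays with no set term turned Hoxa7 (-0.66 in HGMT, -0.69 in HNGMT, -0.63 in DMT and -0.46 in DMNT), Hoxd11 in HNGMT (-0.02), and Hoxb3 (0.25) and Hoxb4 (0.16) in DMNT; the cause was not tested. Leaving the arrays of set 3 out of the fit, an alternative chosen after seeing the data, kept 109 of 116 calls and lost 7. Counts over all genes moved too: HNGMT against NGMT was 379 higher and 615 lower with the title block, against 1068 and 2382, and NGMT against GMT was 64 and 103 with additive terms, against 275 and 304 in set 1 and 4 and 8 in set 2.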
